A study of Danio rerio with 58 samples.

Results

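The samples described here were whole zebrafish (Danio rerio) embryos and larvae exposed to gamma rays at 50 mGy/h and collected at 24 and 48 hours post fertilisation (hpf). They were chosen by their labels: irradiation batch I17, dose rate of 50 mGy/h, replicates 1, 3 and 4 at 24 hpf and replicates 5, 6 and 8 at 48 hpf. This gave 6 of the 58 mRNAseq samples of the study. The question was how gene expression changed between the 2 stages in exposed animals, and which of these stage changes were lost, gained or reversed beside the same change in controls. The controls were 6 unexposed samples of batch I17, replicates 1, 3 and 4 at 24 hpf and replicates 5, 7 and 8 at 48 hpf. All animals had the AB genetic background and were grown at the same temperature in the same medium. Each sample was a pool of animals from which total RNA was extracted. Exposure was external, continuous from the first hours of development up to collection and came from a caesium source, so the 48 hpf pools had received a longer exposure and a larger total dose than the 24 hpf pools. All 12 samples came from 1 irradiation batch, so the p-values measure the spread between pools of that batch. In whole animals, fewer cells of a type and less RNA per cell cannot be told apart. Samples at 5 mGy/h of the same batch and controls of batch I10 were used for comparison only.

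Around these stages the zebrafish embryo finishes adding somites and becomes a larva with working muscle and sensory organs. Somites are cut from the presomitic mesoderm of the tail under a clock of Notch pathway genes, with T-box and caudal factors that mark this tissue. Somite cells then switch on myogenic factors, fuse into fibres and build sarcomeres. In the nervous system, progenitors kept in cycle by Notch signalling give way to differentiating neurons, and lens and retina begin to express their specialised proteins. Ionising radiation breaks DNA and, in many animals, slows the cell cycle and activates p53.

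Counts on genes lay between 32155282 and 48400238 in the 6 exposed samples and between 29672762 and 48400238 over the 12 samples. Replicate 8 at 48 hpf and 50 mGy/h stood apart from the other exposed pools of its stage: a chi-square of its counts over genes, divided by the degrees of freedom, was 156 and 193 against replicates 5 and 6, where that between replicates 5 and 6 was 25.1. To place each pool in development, its log2 CPM (counts scaled to library size with TMM factors) was projected on the change of batch I10 controls between 24 hpf (2 samples) and 48 hpf (4 samples) over 6687 genes. On this scale the I10 controls average 0% at 24 hpf and 100% at 48 hpf. At 24 hpf the exposed pools were at -1.74%, 6.93% and 5.29%, and the I17 controls at 24.1%, 21.0% and 23.4%. Every exposed pool was thus below every control. At 48 hpf the exposed pools were at 74.3%, 78.8% and 92.5% (replicate 8), and the controls at 111.8%, 111.6% and 109.8%. The exposed pools again lay below every control, and replicate 8 was the nearest to them. The mean position was 3.49% ± 4.60 (SD, n = 3) against 22.8% ± 1.67 (SD, n = 3) at 24 hpf, and 81.9% ± 9.49 (SD, n = 3) against 111% ± 1.1 (SD, n = 3) at 48 hpf. Exact permutation tests (two-sided) gave p = 0.1 at each stage, the smallest p that 3 against 3 samples allow. The exposed pools covered 78.4% between the stages and the controls 88.2%. The part of this shift in the gene results below was not tested, and the shift and the exposure cannot be told apart within these samples.

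**Figure D1:**
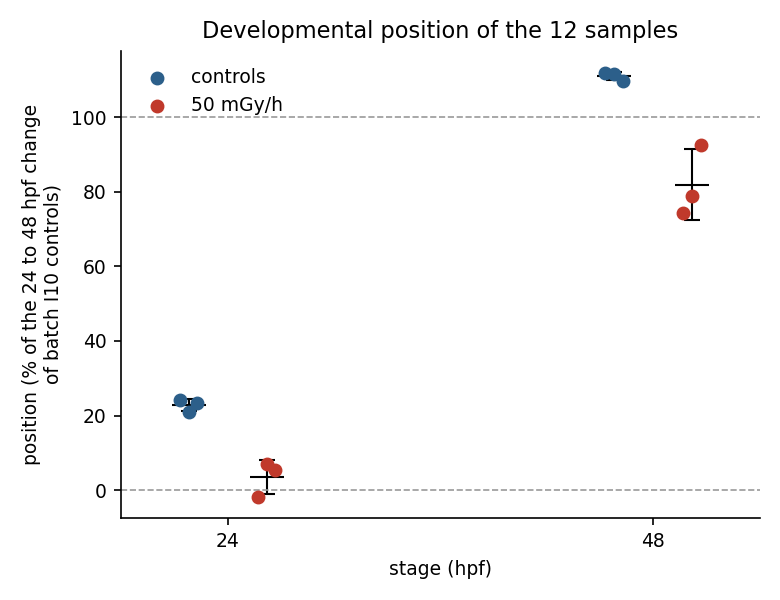
Position of each of the 12 samples (y axis, in percent of the change of batch I10 controls between 24 and 48 hpf) by stage (x axis, hpf). Points are pools, and bars give the mean and SD of 3 pools. The exposed pools lie at -1.74% to 6.93% at 24 hpf and at 74.3% to 92.5% at 48 hpf, below every control of their stage.

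Exposed embryos passed through most of the normal change. Of 19762 genes tested, 4569 changed between 24 and 48 hpf at 50 mGy/h (edgeR quasi-likelihood test, fold change of at least 1.5 and adjusted p under 0.01), which is 23.1% of all genes. Of these, 3007 rose (15.2%) and 1562 fell (7.9%). In controls 4922 genes changed (24.9%), with 3144 that rose (15.9%) and 1778 that fell (9.0%). Of the genes called, 2934 were called in both arms in the same direction, which is 64.2% of the exposed calls and 59.6% of the control calls. A further 1980 genes were called only in controls and 1627 only at 50 mGy/h, but 1774 and 1478 of them had the same sign of change in both arms. Of 3820 genes that rose in I10 controls and were tested in every fit, 98.2% also rose at 50 mGy/h, and of 2692 that fell there, 88.6% fell at 50 mGy/h. In I17 controls these shares were 98.6% and 97.8%. A call in one arm does not show that the arms differ, so each gene was also tested for the difference between the 2 stage changes.

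That difference (the exposed stage change minus the control stage change) was called for 44 genes, 0.223% of those tested, with 30 above 0 and 14 below. A stage change was lost in 11 genes (called in controls, not at 50 mGy/h, difference called), gained in 12 (called at 50 mGy/h only) and reversed in 5 (called in both with opposite signs). It was weakened in 13 genes and enlarged in 3 (called in both with one sign). Without replicate 8 at 48 hpf and 50 mGy/h, 394 genes were called, all 44 among them, with 168 lost, 118 gained and 32 reversed. Leaving out another exposed pool gave 24, 25 or 34 genes (replicates 1, 3 and 4 at 24 hpf) and 20 or 26 genes (replicates 5 and 6 at 48 hpf). Leaving out a control gave 22, 27 or 20 genes (replicates 1, 3 and 4 at 24 hpf) and 18, 23 or 17 genes (replicates 5, 7 and 8 at 48 hpf). The balance of directions depended on the scaling. Of the exposed stage changes called, 65.8% were rises with TMM, 56.9% with DESeq2 size factors and 82.3% with library totals alone, a scaling that moved the median exposed stage change of all genes from 0.09 to 0.38. Of the differences called, 68.2% were above 0 with TMM, and 13 of 26 and 8 of 14 with these scalings.

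**Figure D2:**
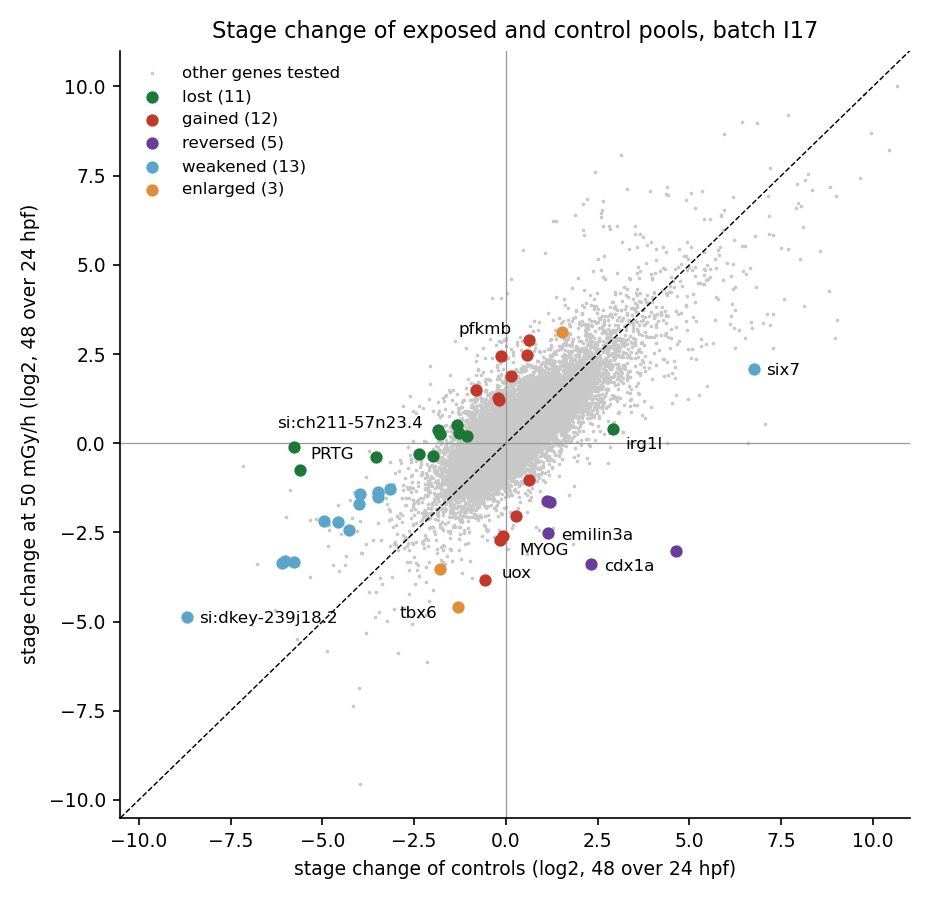
Stage change of each of 19762 genes in controls (x axis, log2, 48 over 24 hpf) and at 50 mGy/h (y axis, log2). Colours mark the 44 genes whose stage change differed, by class, and the dashed line marks equal change. Lost genes lie near 0 on the y axis only, gained genes near 0 on the x axis, and the 5 reversed genes at the lower right.

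The only rise that was lost was that of irg1l, a relative of the mammalian gene for the enzyme that makes itaconate. In controls irg1l was at 3.80, 4.73 and 3.06 CPM at 24 hpf and at 33.4, 23.3 and 29.8 CPM at 48 hpf. In exposed pools it was at 14.5, 13.2 and 14.4 CPM and at 17.4, 15.2 and 23.3 CPM. The exposed pools were above all controls at 24 hpf. At 48 hpf exposed replicate 8 was at the level of the lowest control, and the other exposed pools were below it. Its stage change was 2.90 ± 0.21 (log2, SE) in controls and 0.41 ± 0.20 at 50 mGy/h, and the difference was -2.49 ± 0.29 (adjusted p = 0.00037). This call held in all 21 alternative settings run for single genes (other scalings, filter and tool, other samples in the fit, and each library left out).

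The other 10 lost changes were falls. The largest differences were those of si:ch211-57n23.4 and of PRTG, protogenin, a surface protein of the immunoglobulin family found in the early embryo. si:ch211-57n23.4 went from 124, 108 and 129 CPM to 1.5, 3.03 and 1.97 CPM in controls. At 50 mGy/h it was at 30.0, 61.5 and 53.7 CPM at 24 hpf and at 47.9, 49.5 and 38.6 CPM at 48 hpf. It was thus lower in the exposed pools at 24 hpf, far higher at 48 hpf, and its exposed stages overlapped. The stage change was -5.78 ± 0.31 in controls and -0.09 ± 0.24 at 50 mGy/h, a difference of 5.69 ± 0.38 (adjusted p = 8.06e-07). PRTG went from 33.1, 26.3 and 33.0 CPM to 0.647, 0.819 and 0.415 CPM in controls, and from 14.0, 19.6 and 16 CPM to 9.79, 13.1 and 6.79 CPM at 50 mGy/h. Its exposed pools also fell, by 0.74 ± 0.23 with no overlap of stages, but missed the threshold (adjusted p = 0.0179). The I17 controls lost nearly all of their level (difference 4.86 ± 0.36, adjusted p = 2.69e-06). Both calls held in 20 of 21 settings and were lost with batch I10 controls added.

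NR0B2, an orphan nuclear receptor that represses other receptors, was at 28.8, 19.5 and 21.9 CPM and then at 2.41, 2 and 1.58 CPM in controls. In exposed pools it was at 22.4, 18.8 and 10.7 CPM and then at 14.7, 17.7 and 6.95 CPM. The arms overlapped at 24 hpf and not at 48 hpf, where replicate 8 was the lowest exposed pool (difference 3.15 ± 0.45, adjusted p = 0.00206). ACP5, an acid phosphatase known from bone-resorbing cells, was at 82.8, 118 and 97.0 CPM and then at 28.3, 27.6 and 30.4 CPM in controls, and between 82.8 and 129 CPM in all 6 exposed pools. No fall was seen in the exposed pools (stage change 0.27 ± 0.17), and the difference was 2.06 ± 0.24 (adjusted p = 0.000523). In unexposed I10 controls ACP5 changed by -0.18 ± 0.19, which was not called (adjusted p = 0.442). olig3, a bHLH factor of dorsal neural progenitors, was at 19.9, 20.6 and 20.2 CPM and then at 3.94, 3.66 and 4.25 CPM in controls. At 50 mGy/h olig3 was at 12.4, 12.7 and 11.4 CPM and then at 10.6, 11.5 and 7.25 CPM. It was lower than controls at 24 hpf and higher at 48 hpf (difference 2.04 ± 0.25, adjusted p = 0.000667), and its call held in 18 of 21 settings.

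The remaining lost falls are named after their values were seen. They were nin (ninein, a centrosome protein), sb:cb81, LRRN1 (a neuronal leucine-rich repeat protein), ptprna (a receptor-type phosphatase) and TACR1 (a tachykinin receptor, whose symbol is shared by several zebrafish genes). Their differences lay between 1.26 ± 0.21 (ptprna) and 2.23 ± 0.36 (TACR1). These calls were less stable and held in 5 to 9 of 21 settings. For nin, the levels were 29.5, 23.5 and 30.7 CPM and then 11.3, 11.8 and 9.95 CPM in controls, and 9.72, 15 and 11.6 CPM and then 18.9, 20.2 and 12.4 CPM at 50 mGy/h.

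**Figure D3:**
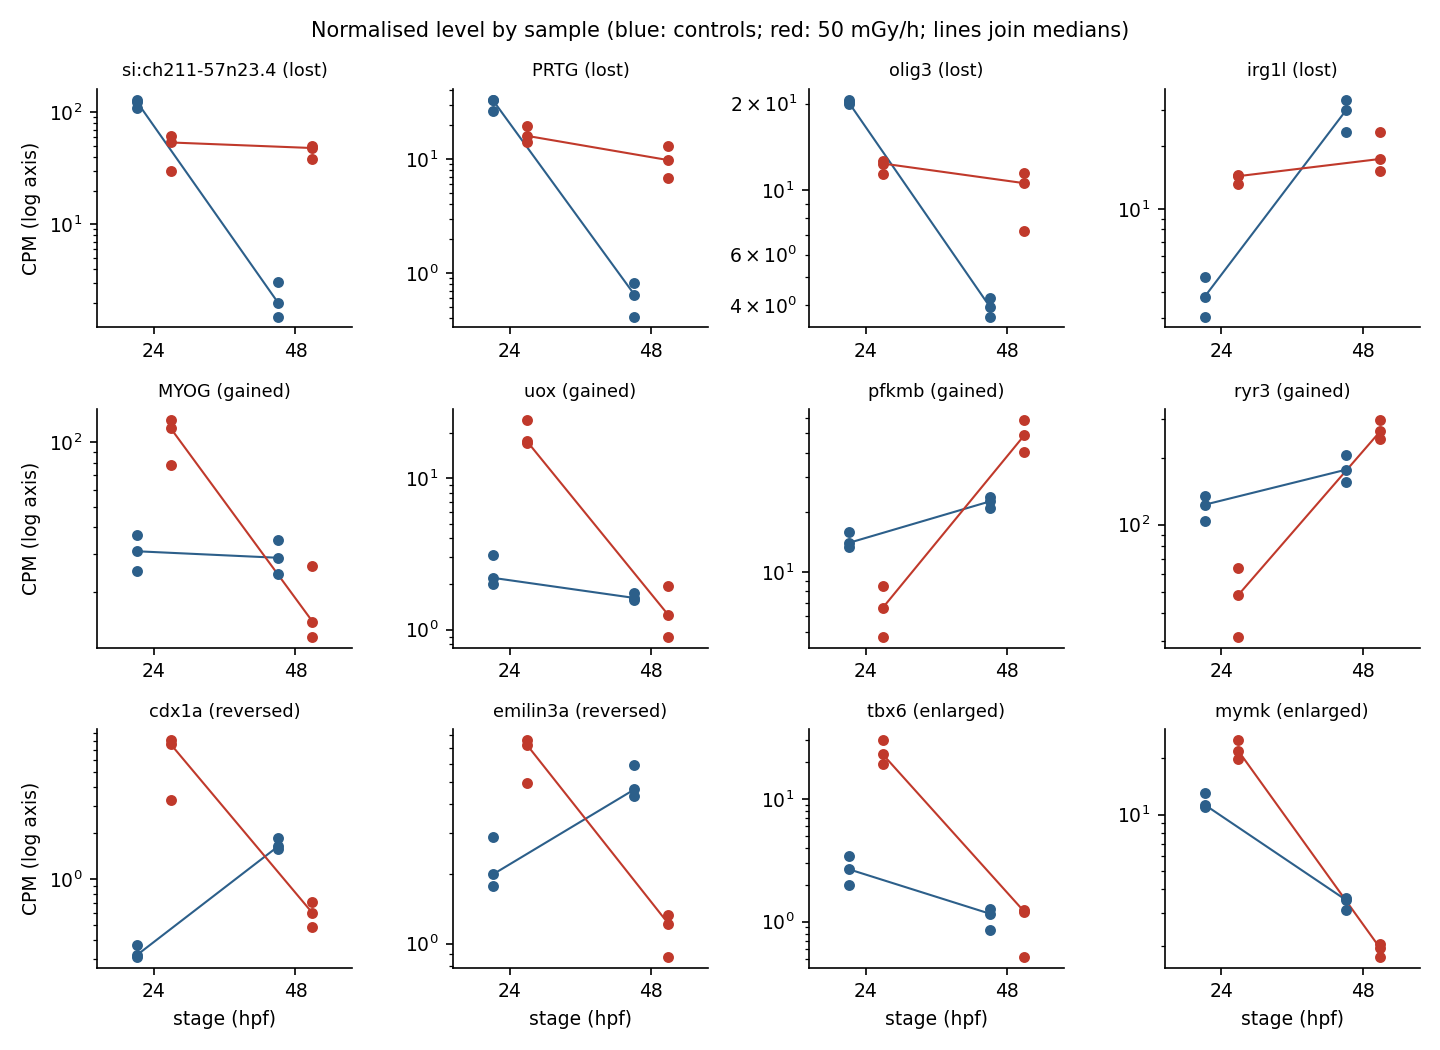
Level of 12 genes in each of the 12 samples (y axis, CPM, log axis, its range set per gene) by stage (x axis, hpf). Points are pools and lines join the medians of 3 pools, with controls in blue and 50 mGy/h in red. In the lost genes of the top row the red line is flatter than the blue one, and in the gained genes of the middle row it is steeper.

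Stage changes that were gained concerned muscle in several cases. MYOG, myogenin, the factor that drives muscle precursors into terminal differentiation, was at 24.9, 36.9 and 30.9 CPM at 24 hpf and at 34.9, 24.1 and 28.8 CPM at 48 hpf in controls. In exposed pools it was at 116, 78.4 and 127 CPM and then at 14.5, 12.3 and 26.3 CPM. Exposed embryos thus had more myogenin transcript than every control at 24 hpf, and at 48 hpf the arms overlapped through replicate 8. The stage change was -2.60 ± 0.27 at 50 mGy/h and -0.08 ± 0.26 in controls, a difference of -2.52 ± 0.37 (adjusted p = 0.00332) that held in 13 of 21 settings. The rises gained included pfkmb, muscle phosphofructokinase, a control point of glycolysis. pfkmb was at 4.71, 8.53 and 6.58 CPM and then at 58.3, 48.8 and 40.3 CPM at 50 mGy/h, and at 14.0, 15.9 and 13.3 CPM and then at 22.7, 20.9 and 23.8 CPM in controls. It started below the I17 controls and ended above them (difference 2.25 ± 0.28, adjusted p = 0.000667, held in 19 of 21 settings). The I10 controls were also above every I17 control at 48 hpf, with pfkmb at 34.0 to 39.5 CPM.

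ryr3, a calcium release channel of the muscle membrane system, rose from 31.3, 63.7 and 48.4 CPM to 296, 263 and 243 CPM at 50 mGy/h. In controls it was at 135, 104 and 123 CPM and then at 155, 206 and 177 CPM. The exposed pools of ryr3 also went from below to above every I17 control. The difference was 1.91 ± 0.31 (adjusted p = 0.00808, held in 6 of 21 settings). In unexposed I10 controls ryr3 was at 284, 290, 310 and 308 CPM at 48 hpf. Between the arms at 48 hpf the test was passed for pfkmb (adjusted p = 0.00384) and not for ryr3 (adjusted p = 0.126). TNNT3, fast muscle troponin T, was at 238, 233 and 236 CPM and then at 858, 1020 and 736 CPM at 50 mGy/h, against 510, 381 and 446 CPM and then 448, 458 and 573 CPM in controls. Its symbol is shared by paralogs, and the values are those of ENSDARG00000030270 (difference 1.74 ± 0.27, adjusted p = 0.00534, held in 7 of 21 settings). In I10 controls TNNT3 was at 767 to 957 CPM at 48 hpf. capn3b, a muscle calpain, rose in both arms, but by 3.12 ± 0.20 at 50 mGy/h and 1.52 ± 0.19 in controls, and was enlarged by the rule (adjusted p = 0.00915, held in 7 of 21 settings).

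Outside muscle, uox, urate oxidase, was at 24.2, 17.6 and 17.2 CPM in exposed pools at 24 hpf and at 3.13, 2.2 and 2 CPM in controls. At 48 hpf uox was at 0.898, 1.94 and 1.25 CPM at 50 mGy/h and at 1.62, 1.57 and 1.74 CPM in controls. The fall was thus one from a level above the I17 controls at 24 hpf to their level at 48 hpf (difference -3.27 ± 0.38, adjusted p = 0.00037, held in 19 of 21 settings). In I10 controls uox fell by 4.37, from 49.9 and 16.1 CPM at 24 hpf. slc22a5, a carnitine transporter, was at 7.07, 6.98 and 7.28 CPM at 24 hpf and then at 0.944, 0.776 and 1.55 CPM at 50 mGy/h, against 0.726 to 1.68 CPM in all 6 controls. anxa14, an annexin, was at 10.4, 6.21 and 8.53 CPM and then at 2.19, 1.65 and 2.23 CPM at 50 mGy/h, against 1.52 to 2.51 CPM in the 6 controls. Both had the course of uox, with differences of -2.56 ± 0.44 for slc22a5 and -2.32 ± 0.35 for anxa14, which held in 6 and 10 of 21 settings. Both also fell in I10 controls, by 1.41 (slc22a5) and 1.21 (anxa14). Rises were gained by aep1, an aerolysin-like protein (difference 2.58 ± 0.44), and hgfa, hepatocyte growth factor (difference 2.31 ± 0.39), which held in 4 and 5 of 21 settings. hgfa rested partly on 2 pools at 48 hpf, with 6.15 and 6.41 CPM in replicates 5 and 6 and 2.77 CPM in replicate 8, against 1.68 to 2.05 CPM at 24 hpf. Named after their values were seen, smad3b, a transducer of TGF-beta signals, and NPAS1, a neuronal bHLH-PAS factor, rose (differences 1.48 ± 0.23 and 1.42 ± 0.24), and MEGF10, a receptor of glia and muscle precursors, fell (difference -1.64 ± 0.26). These calls held in 7 (smad3b), 4 (NPAS1) and 8 (MEGF10) of 21 settings.

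The 5 reversed genes rose in controls and fell at 50 mGy/h. cdx1a, a caudal homeobox factor of the tail end of the embryo, was at 0.368, 0.309 and 0.318 CPM and then at 1.85, 1.64 and 1.56 CPM in controls. In exposed pools cdx1a was at 8.06, 7.58 and 3.29 CPM and then at 0.599, 0.485 and 0.706 CPM. The exposed pools were above every control at 24 hpf and below every control at 48 hpf. The stage change was -3.40 ± 0.33 at 50 mGy/h and 2.32 ± 0.35 in controls, a difference of -5.72 ± 0.48 (adjusted p = 9.24e-06, held in 20 of 21 settings). The lowest count of cdx1a in a sample was 9. emilin3a, a matrix glycoprotein of the notochord sheath, was at 2.90, 1.99 and 1.77 CPM and then at 5.94, 4.64 and 4.33 CPM in controls, and at 4.97, 7.25 and 7.57 CPM and then at 0.875, 1.33 and 1.22 CPM at 50 mGy/h. It differed between the arms at both stages, in opposite directions (difference -3.69 ± 0.37, adjusted p = 8.4e-05). EFHD1, a calcium-binding protein of mitochondria, was at 40.2, 17.5 and 18.7 CPM and then at 8.13, 8.66 and 7.74 CPM at 50 mGy/h, and at 5.71, 5.59 and 5.38 CPM and then at 14.4, 12 and 11.7 CPM in controls (difference -2.83 ± 0.36). ponzr5 had the same course with a difference of -2.74 ± 0.37. ENSDARG00000039070 was also reversed but was scarce, at 0.823 to 1.84 CPM in exposed pools at 24 hpf and at or under 0.364 CPM in the other 9 samples, with 0 counts in 2 controls, and no fold is given for it.

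Among the 13 weakened genes, 12 fell in both arms but less at 50 mGy/h. Of these, 6 are genes that RefSeq lists under the synonym ctsl, for the protease cathepsin L, and that lie on chromosome 12 of the GRCz12tu assembly. Such copies are alike in sequence, and reads that map to more than 1 place were not counted, so how counts are split among them is uncertain. si:dkey-239j18.2, one of these copies, went from 128, 125 and 117 CPM to 0.412, 0.137 and 0.363 CPM in controls, and from 245, 167 and 161 CPM to 8.2, 8.13 and 3.2 CPM at 50 mGy/h. It fell steeply in both arms and kept a higher level in every exposed pool at 48 hpf (difference 3.82 ± 0.49, adjusted p = 0.000879). The differences of the other 5 copies called lay between 1.84 ± 0.31 (si:dkey-269i1.4) and 2.72 ± 0.46 (si:dkey-26g8.5), and held in 5 (zgc:174154) to 16 (zgc:174153) of 21 settings. 2 further genes under the synonym, ctslb, a known hatching gland gene, and ctsll, had differences of 1.60 and 0.99 that were not called. ctss2.1, cathepsin S, went from 141, 189 and 171 CPM to 9.74, 9.12 and 13.0 CPM in controls and from 326, 298 and 249 CPM to 113, 98.4 and 113 CPM at 50 mGy/h (difference 2.54 ± 0.26, adjusted p = 0.000124).

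Other weakened falls were those of LIN28A, an RNA-binding protein that blocks let-7 miRNA processing, nkx2.9, a homeobox factor of the ventral neural tube, MAPK12, a p38 kinase, wfikkn1, a secreted inhibitor of myostatin-like ligands, and ENSDARG00000039173. nkx2.9 was at 7.92, 8.85 and 7.71 CPM and then at 0.736, 0.842 and 0.596 CPM in controls, and at 10.2, 8.53 and 9.98 CPM and then at 3.78, 3.35 and 2.99 CPM at 50 mGy/h. The arms overlapped at 24 hpf only. Their differences lay between 1.88 ± 0.23 (MAPK12) and 2.79 ± 0.46 (wfikkn1), and those of LIN28A and wfikkn1 held in 6 and 11 of 21 settings. The only weakened rise was that of six7, a factor of cone photoreceptors. six7 was at 0.138, 0.172 and 0.0907 CPM and then at 14.4, 14.7 and 13.6 CPM in controls, and at 1.36, 1.75 and 0.296 CPM and then at 2.58, 5.05 and 7.03 CPM at 50 mGy/h. It was above the controls at 24 hpf and below them at 48 hpf (difference -4.66 ± 0.70, adjusted p = 0.00418, held in 11 of 21 settings).

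Falls that were enlarged were those of tbx6, a T-box factor of the presomitic mesoderm, and mymk, myomaker, the membrane protein that lets myoblasts fuse. tbx6 was at 19.4, 23.2 and 30.1 CPM and then at 1.24, 1.21 and 0.516 CPM at 50 mGy/h, and at 1.98, 3.46 and 2.68 CPM and then at 1.27, 1.16 and 0.855 CPM in controls. At 48 hpf the arms overlapped, and the larger fall came from the higher level at 24 hpf (difference -3.30 ± 0.42, adjusted p = 0.000848, held in 19 of 21 settings). In I10 controls tbx6 fell by 3.86. mymk was at 24.9, 19.8 and 21.8 CPM and then at 2.03, 1.94 and 1.74 CPM at 50 mGy/h, and at 13.1, 11 and 11.3 CPM and then at 3.50, 3.57 and 3.11 CPM in controls. It was above every control at 24 hpf and below every control at 48 hpf (difference -1.74 ± 0.24, adjusted p = 0.00158, held in 17 of 21 settings).

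The classes differed in the stage at which exposed and control pools were apart. Exposed and control pools differed by 583 genes at 24 hpf (2.95%) and by 295 genes at 48 hpf (1.49%). These contrasts come from the samples that made the classes and are given as a description. Of the 11 lost genes, 7 were called between the arms at 48 hpf only, 2 at 24 hpf only (irg1l and nin), 1 at both (si:ch211-57n23.4) and 1 at neither (ptprna). Of the 13 weakened genes, 11 were called at 48 hpf only. In contrast, 11 of the 12 gained genes, 4 of the 5 reversed and the 3 enlarged genes were called at 24 hpf only. Lost and weakened changes were thus mostly transcripts that stayed above the I17 controls in exposed larvae at 48 hpf. Unexposed I10 larvae shared this for every lost or weakened gene that fell in I17 controls. All their pools at 48 hpf were above every I17 control for these genes. For ACP5 they were at 50.6 to 91.7 against 27.6 to 30.4 CPM, and for ctss2.1 at 33.5 to 89.8 against 9.12 to 13.0 CPM. The margin was smallest for ptprna (33.5 to 43.6 against 27.2 to 32.4 CPM). Gained, reversed and enlarged changes were mostly transcripts already off the level of the I17 controls at 24 hpf. Batch I10 controls did not share that level for any gained, reversed or enlarged gene that fell at 50 mGy/h. At 24 hpf both I10 pools were above every I17 control for each of these genes. They were at 79.2 and 66.1 CPM for MYOG, 28.3 and 22.4 CPM for mymk and 49.9 and 16.1 CPM for uox. For the genes that rose, the I10 pools were mixed. For pfkmb (5.54 and 7.56 CPM) they were within the range of the exposed pools. For ryr3 they were below every I17 control, and for smad3b and NPAS1 they lay between the arms. The I10 levels were scaled in a fit of their own, so narrow orderings are uncertain. For ryr3 the higher I10 pool was at 101 CPM and the lowest I17 control at 104 CPM. For aep1 (177 and 226 CPM), TNNT3 (481 and 613 CPM), hgfa and capn3b they were above every exposed pool, as were the I17 controls.

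The same genes were examined in pools that the classes did not use. At 5 mGy/h (3 pools at 24 hpf and 2 at 48 hpf), 3519 of 19772 genes changed between the stages (17.8%). For all 44 genes the stage change at 5 mGy/h was nearer to that at 50 mGy/h than to that of the I17 controls. These genes were chosen for a wide gap between those 2 values, so an extreme I17 control value alone favours this outcome. The share over all genes was not computed, and the count is a description only. The stage change at 5 mGy/h was called for 1 of the 11 lost and 11 of the 12 gained changes, and most genes of the whole table were not called there. Unexposed I10 controls gave similar calls for the gained genes, with 6 of the 12 called up and 4 down, each in the direction seen at 50 mGy/h. Of the 3 enlarged genes 1 was called up and 2 down there, and of the 11 lost genes 1 up and 5 down. At 5 mGy/h the 5 reversed genes all had a stage change below 0, 3 of them past the threshold. irg1l was at 10.1, 12.1 and 19.0 CPM and then at 10.4 and 16.2 CPM at 5 mGy/h, with overlapping stages. No gene had a stage change that differed between 50 and 5 mGy/h by the edgeR test (0 of 19772, 0.0%, with 333 genes at an unadjusted p under 0.05), in a comparison with 2 pools of 5 mGy/h at 48 hpf. This does not show that the dose rates act alike.

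Controls of batch I10 gave another view of the same genes. In their own fit 6687 of 20295 genes changed between 24 and 48 hpf (32.9%). The stage change of the I10 controls was nearer to that at 50 mGy/h than to that of the I17 controls for 34 of the 44 genes, and nearer to the I17 controls for 10. The limit given for the count at 5 mGy/h holds here too. The 5 reversed genes all had a stage change below 0 in I10 controls, 4 of them called, with cdx1a at -2.40 and emilin3a at -1.67. The 2 I10 pools at 24 hpf were far apart for these genes, replicate 2 being the higher. They were at 8.67 and 1.67 CPM for cdx1a, 11.7 and 5.54 CPM for emilin3a and 29.1 and 14.9 CPM for EFHD1. At 48 hpf the I10 pools were at 0.717 to 1.2, 2.0 to 4.16 and 11.5 to 14.8 CPM. The size of these falls thus depends on replicate 2. MYOG fell by 1.70 and pfkmb rose by 2.49 in I10 controls, whereas both were called as gained against the I17 controls. The lost falls of ACP5, LRRN1, TACR1, nin and ptprna were not called in I10 controls, with stage changes of -0.18, -0.06, -0.16, -0.38 and -0.57. Those of olig3 and sb:cb81 were called there (-1.16 and -0.86). si:ch211-57n23.4, PRTG and NR0B2 fell by 0.83, 2.17 and 2.12 in I10 controls, between the values of the exposed and control pools of I17. At 48 hpf the I10 controls were at 43.1, 23.8, 26.2 and 38.5 CPM for si:ch211-57n23.4. For PRTG they were at 15.6, 6.56, 8.92 and 10.2 CPM. Both genes were thus above every I17 control at that stage in unexposed larvae of batch I10 as well. The 3 lost genes nearer to the I17 controls were NR0B2, ptprna and irg1l. irg1l rose by 3.53 in I10 controls, from 2.98 and 2.43 CPM to 34.0, 32.5, 24.6 and 34.1 CPM. With the I10 controls added to the fit and batch as a term, the difference was called for 1 gene, irg1l, with a difference of -2.79 (adjusted p = 8.43e-06). All 44 genes kept the sign, but that fit includes the 12 samples that chose them, so the sign is no separate evidence. In that fit 4157 genes had an unadjusted p under 0.05. By the position given above, the I17 controls were at 22.8% and 111% where the I10 controls average 0% and 100%, and the part of this shift in these values was not tested.

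**Figure D4:**
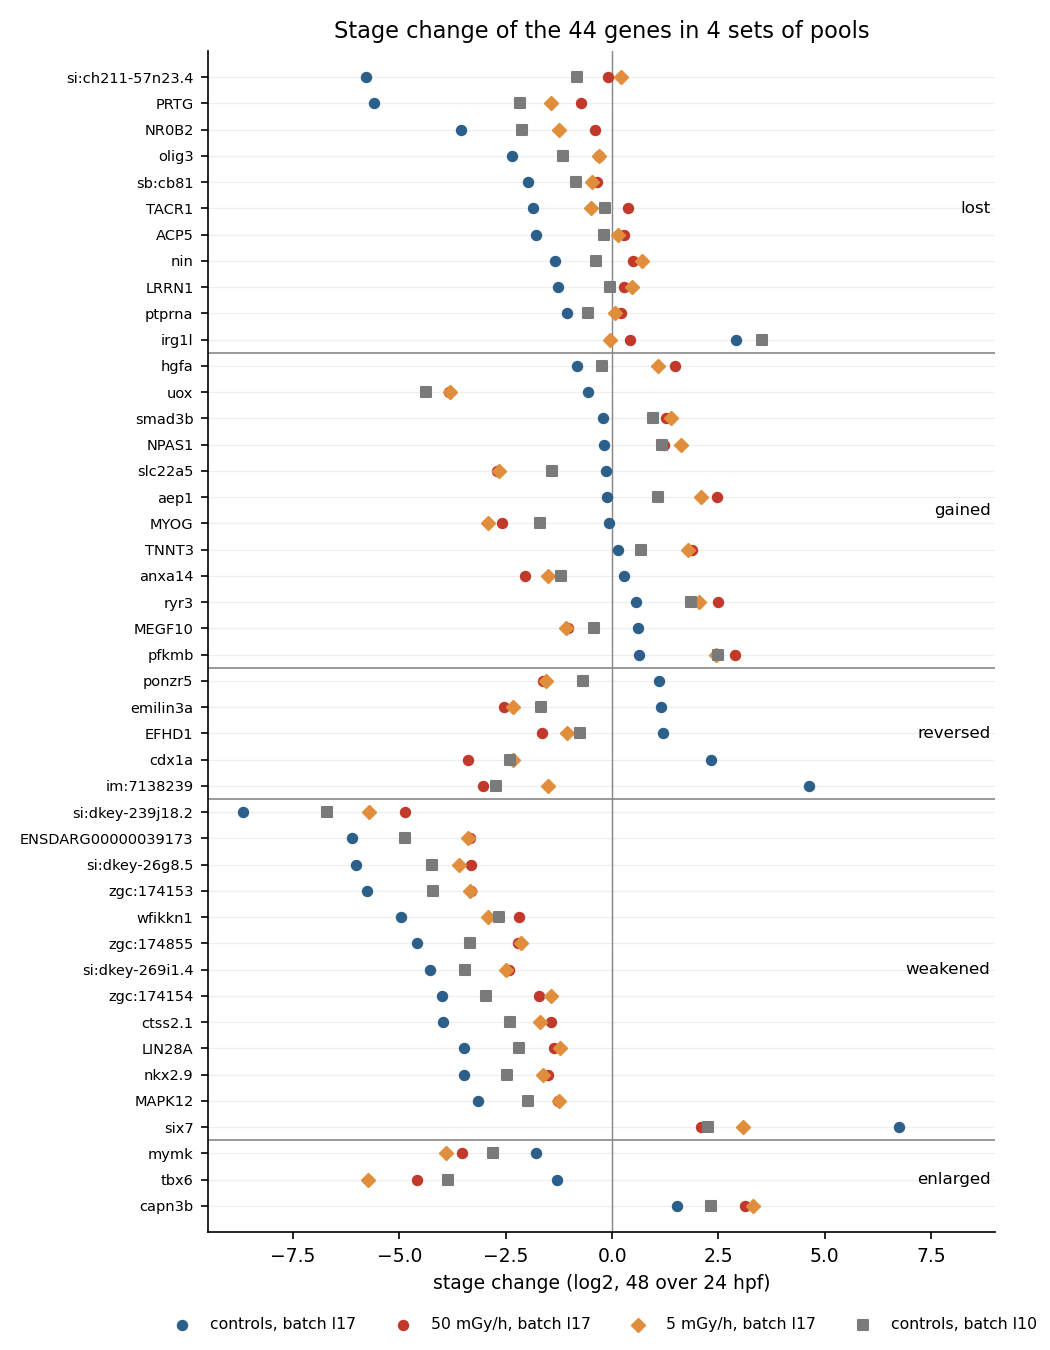
Stage change (x axis, log2, 48 over 24 hpf) of the 44 genes whose stage change differed, ordered by class, in I17 controls, 50 mGy/h, 5 mGy/h and I10 controls. The points of 5 mGy/h lie nearer to those of 50 mGy/h than to the I17 controls for all 44 genes, and those of I10 controls do so for 34. The genes were chosen by the gap between 50 mGy/h and the I17 controls.

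Of the 44 genes, 32 were tested between 50 mGy/h (2 pools) and controls (3 pools) at 96 hpf, and 2 were called, aep1 and capn3b, both higher at 50 mGy/h. Over all genes 675 of 20118 were called at 96 hpf (3.36%). A gene that was not called may still differ. With replicate 9 at 50 mGy/h kept, which the study had removed, 1 gene was called over all genes.

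Gene groups were then followed through lists of genes. No list is tested as a set, and each is given by its counts and median beside the same over all genes (median stage change 0.09 at 50 mGy/h and -0.01 in controls, median difference 0.04, with 52.8% of genes above 0). Over all genes 15.2% were called up and 7.9% down at 50 mGy/h, and 15.9% and 9.0% in controls. More genes were called in I10 controls, where 3950 of 20295 rose and 2737 fell (32.9% together), so counts from I10 are to be read beside these. Between the arms, 358 of the 19762 genes were higher and 225 lower at 50 mGy/h at 24 hpf (2.95% together). At 48 hpf 166 were higher and 129 lower (1.49% together). A count of calls in each arm is no test of the difference between the arms. Of 48 genes of DNA replication, 23 were called down at 50 mGy/h and 44 in controls, with median stage changes of -0.81 and -1.08 (I10 controls 41 and -0.88). Of 42 genes of mitosis and chromosome segregation, 8 were called down at 50 mGy/h and 30 in controls, with medians of -0.40 and -0.94 (I10 controls 28 and -0.67). No single difference in either list was called, but 91.7% and 95.2% of the genes had a difference above 0, with medians of 0.38 and 0.47. Between the arms, 5 replication genes were higher at 50 mGy/h at 48 hpf and none at 24 hpf. ccne2, a cyclin of S phase entry, was chosen after its values were seen and had a stage change of 0.82 at 50 mGy/h and -1.25 in controls (difference 2.07 ± 0.39, adjusted p = 0.0179, and 2.35 with adjusted p = 0.000504 without replicate 8). For the p53 pathway, 7 of 36 genes rose at 50 mGy/h and 3 in controls, with medians of 0.29 and 0.0023, no difference called and a median difference of 0.38. In I10 controls 7 of these p53 genes rose as well.

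Of 32 genes of the Notch pathway and of neural progenitors, 5 were called down at 50 mGy/h and 14 in controls, with median stage changes of -0.06 and -0.85. In I10 controls 8 were called down, with a median of -0.18, nearer to that at 50 mGy/h than to that of the I17 controls. The median difference, 0.72, was the largest of the lists, 84.4% of the genes were above 0, and no single difference was called. The Notch ligands dla and dlb, chosen after their values were seen, changed by 0.40 and 0.38 at 50 mGy/h and by -1.05 and -0.95 in controls (differences 1.46 ± 0.27 and 1.33 ± 0.25, adjusted p = 0.0173 and 0.0177). Both were called without replicate 8. Of 17 proneural factors, olig3 alone had a difference called. Most transcripts of neuronal differentiation rose between the stages in both arms: of 69 genes, 49 rose at 50 mGy/h and 57 in controls. None of these genes fell in either arm, and the medians were 1.55 and 1.67. The level was lower at 50 mGy/h for 10 of them at 24 hpf and for 11 at 48 hpf, and higher for none. For elavl4, an RNA-binding protein of differentiating neurons, the pools were at 14.7, 20.9 and 16.5 CPM and then at 36.9, 46.3 and 60.9 CPM at 50 mGy/h, and at 30.9, 21.9 and 28.5 CPM and then at 114, 144 and 102 CPM in controls. The exposed pools were lower at both stages, with the test passed at 48 hpf only (-1.32 ± 0.21, adjusted p = 0.00225), and the difference in stage change was not called (adjusted p = 0.26).

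Of 61 genes of sarcomere and calcium release, 31 rose at 50 mGy/h and 24 in controls, with medians of 0.99 and 0.63 (I10 controls 37 and 1.17), and the 2 with a called difference (TNNT3 and ryr3) were gained rises. Of 21 myogenic regulators, 8 fell at 50 mGy/h and 7 in controls, with medians of -0.33 and -0.52 (I10 controls 10 and -0.43). For these regulators 2 differences were called, MYOG and mymk, both from a level above the I17 controls at 24 hpf. At 24 hpf, 5 of these regulators were higher and 1 lower at 50 mGy/h. Neither list held a difference of the opposite direction that was called. The muscle markers actc1b and ckma had differences of -0.36 and -0.26 that were not called.

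Genes of the presomitic mesoderm went in both directions at 24 hpf. Of 28 somite clock and presomitic genes, 10 were higher and 1 lower than controls at 24 hpf, and 1 was higher at 48 hpf. Their stage change was called down for 14 genes at 50 mGy/h and for 13 in controls, with medians of -0.96 and -0.9996 (I10 controls 16 and -1.38). The summed level of the list at 24 hpf overlapped between the arms, at 679 to 776 CPM in exposed pools and 751 to 769 CPM in controls. Among members chosen after their values were seen, HES6 was at 5.33 to 10.2 CPM in exposed pools and at 15.6 to 24.3 CPM in controls at 24 hpf, and lfng at 150 to 190 CPM and 246 to 279 CPM. dlc, NRARP, fgf4 and her15.1 were also below every control at that stage. her1, a cycling gene of the somite clock, was at 2.95 to 3.72 CPM in exposed pools and at 0.515 to 0.529 CPM in controls at 24 hpf, and at or under 0.0588 CPM in all pools at 48 hpf. msgn1, mesogenin, a presomitic bHLH factor, was at 30.6, 7.79 and 6.29 CPM in exposed pools and at 1.77, 1.89 and 1.34 CPM in controls at 24 hpf. At 48 hpf it was at 0, 0.0243 and 0.0272 CPM in exposed pools and up to 0.205 CPM in controls. tbx16 was at 4.27, 4.01 and 4.15 CPM in exposed pools and at 0.851, 1.06 and 0.635 CPM in controls at 24 hpf, and at 0.115 to 0.296 CPM in all pools at 48 hpf. Unexposed I10 pools at 24 hpf were also above every I17 control for these genes. They were at 37.1 and 9.47 CPM for msgn1 and at 6.64 and 3.22 CPM for tbx16. Only tbx6 and cdx1a had a called difference in this list, and the differences of tbx16 (-2.33 ± 0.56, adjusted p = 0.0506) and msgn1 (-5.57 ± 1.55, adjusted p = 0.0914) missed the threshold.

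Of 30 genes of epidermis, keratin and claudin, 8 fell at 50 mGy/h, 5 in controls and 11 in I10 controls. The median stage changes were -0.57, -0.17 and -0.43, and the median difference was -0.46. At 24 hpf 9 of these genes were higher at 50 mGy/h than in the I17 controls. krt5, a keratin chosen after its values were seen, changed by -0.90 at 50 mGy/h and by 1.17 in controls (difference -2.08 ± 0.36, adjusted p = 0.0115, and -2.41 with adjusted p = 0.000546 without replicate 8). Of 32 genes of cartilage, notochord and matrix, 6 rose at 50 mGy/h and 12 in controls, with medians of 0.13 and 0.51 (I10 controls 17 and 0.62). The only called difference was that of emilin3a. Of 9 hatching gland genes, 4 were higher than controls at 24 hpf and 3 at 48 hpf, and none was called lower. Their median stage change was -1.69 at 50 mGy/h, -1.12 in controls and -1.68 in I10 controls. ctsl.1, chosen after its values were seen, was below every control at 48 hpf, at 1.84, 1.26 and 1.71 CPM in exposed pools and at 2.21, 2.14 and 2.67 CPM in controls, where the test was not passed. he1.1, the hatching enzyme, was at 1050 to 1400 CPM and then at 234 to 317 CPM in exposed pools and at 537 to 682 CPM and then at 94.6 to 112 CPM in controls. In the lists of lens, photoreceptor, erythroid, endothelial, blood phagocyte, cardiac, liver and gut, pigment and neural crest, glial, retinoic acid, circadian, heat shock and mitochondrial genes no difference was called. Lens genes had the highest median stage change in both arms, 2.74 at 50 mGy/h and 2.67 in controls, with 39 and 38 of 43 genes that rose. CRYAA, alpha A crystallin, ranged from 6.79 to 19.5 CPM in exposed pools and from 17.7 to 23.2 CPM in controls at 48 hpf.

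**Figure D5:**
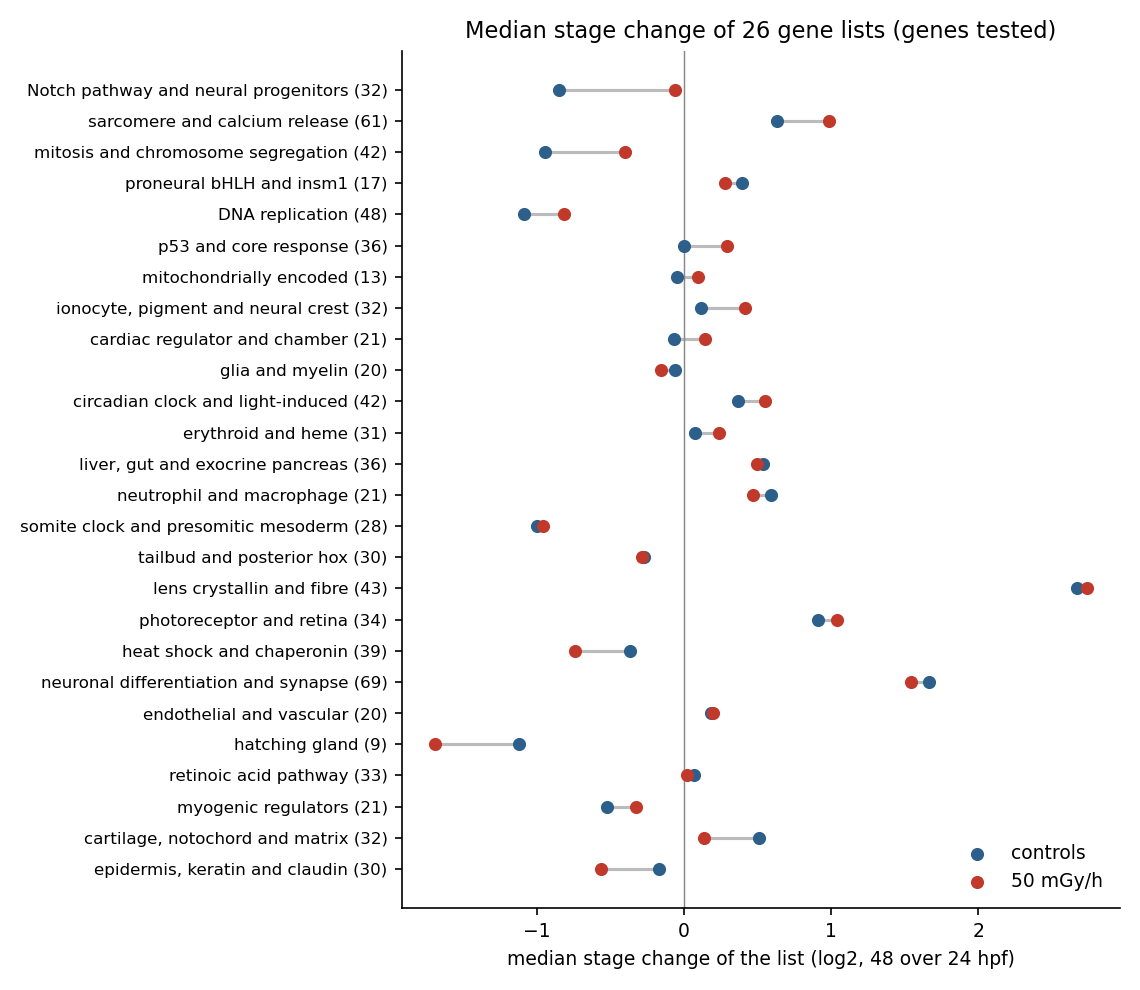
Median stage change (x axis, log2, 48 over 24 hpf) of 26 gene lists, with the number of genes tested in brackets, in controls (blue) and at 50 mGy/h (red), ordered by the median difference. Lists of Notch pathway, mitosis and DNA replication have control medians of -0.85, -0.94 and -1.08 and exposed medians nearer to 0.

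The largest stage changes at 50 mGy/h were not among those that differed, with 1 exception. The steepest rises reported by the rule were those of AMPD1, a muscle AMP deaminase, and crygm2d11, a gamma crystallin of the lens. AMPD1 was at 0.0736, 0.267 and 0.0658 CPM and then at 77.4, 76.6 and 292 CPM at 50 mGy/h, and reached 419, 283 and 345 CPM in controls. crygm2d11 was at 5.46, 6.89 and 25.5 CPM at 48 hpf in exposed larvae and at 40.2, 22.0 and 36.1 CPM in controls. In both genes replicate 8 was within the range of controls and replicates 5 and 6 were below it. The steepest falls were those of msgn1, si:dkey-239j18.2 (weakened) and MOGAT2, a lipid acyltransferase of the gut. MOGAT2 was at 17.4, 9.96 and 9.32 CPM at 24 hpf in exposed pools and at 1.43, 1.41 and 1.18 CPM in controls, and its difference (-2.66 ± 0.49, adjusted p = 0.0177) was not called. In unexposed I10 pools MOGAT2 was at 18.7 and 4.4 CPM at 24 hpf.

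Among the 16 genes whose course the study plotted, MYOG was the only one with a called difference. The stage change was called in 12 of them at 50 mGy/h, 4 up and 8 down, and in 7 in controls, 4 up and 3 down. hspb1, a small heat shock protein, fell from 345, 395 and 533 CPM to 46.4, 50.9 and 89.6 CPM at 50 mGy/h and from 154, 252 and 205 CPM to 49.3, 33.6 and 43.5 CPM in controls, a difference of -0.50 ± 0.37 that was not called. TAL1, a factor of blood precursors, was at 39.0, 29.0 and 29.1 CPM and then at 20.8, 17.3 and 16 CPM at 50 mGy/h, and at 17.9 to 22.1 CPM in all 6 controls. Its fall was called at 50 mGy/h only, and its difference was -0.92 ± 0.23 (adjusted p = 0.0636). meox1, a somite factor, fell by 1.75 at 50 mGy/h and changed by -0.57 in controls (adjusted p of the difference = 0.115). In I10 controls meox1 changed by -1.655, which was called. pax6b, a factor of eye and brain, did not change between the stages in either arm by the test and was lower at 50 mGy/h at 48 hpf (-0.88, adjusted p = 0.00817). vox, a ventral homeobox factor, fell in both arms, by 1.81 and 2.03, and was higher at 50 mGy/h at both stages. POU4F2, a factor of retinal ganglion cells, rose in both arms and was at 6.17, 7.45 and 11.4 CPM in exposed larvae at 48 hpf and at 22.5, 24.0 and 22.0 CPM in controls. For her4.4, a Notch target of neural progenitors, neither stage change was called (0.66 ± 0.31 at 50 mGy/h and -0.73 ± 0.31 in controls), nor was the difference of 1.39 ± 0.43 (adjusted p = 0.127).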

How the data were processed

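Poly(A) mRNA of whole animals was sequenced from stranded libraries. Per the labels and submitters' processing notes the authors aligned the reads with STAR to GRCz11 and deposited raw counts per gene, with rows for reads that map to several places (16.1% to 17.5% of read pairs) or name no gene (23.3% to 28.0% with the former), which were left out here. The counts of the sense strand column were used. Symbols came from a table of the study (1867 genes) and a RefSeq-based table (27128 genes), which gives some in human style and some to several paralogs, and 3062 genes have none. The 12 samples of batch I17 (3 in each of 4 groups) were fitted together with edgeR 4.0.16 (R 4.3.3, filterByExpr, TMM, quasi-likelihood test, Benjamini-Hochberg adjustment over all genes), with a fold change of 1.5 and an adjusted p of 0.01 as thresholds. The difference in stage change is the interaction of stage and exposure. Batch I10 controls, 5 mGy/h samples and 96 hpf samples had fits of their own, without the 2 samples that the study removed (replicate 8 at 48 hpf and 5 mGy/h, replicate 9 at 96 hpf and 50 mGy/h). On simulated data, the difference was called for 5.97% of 67 genes planted at a log2 of 1, 77.6% of 67 at 2 and 95.5% of 66 at 3, with 3 false calls among 19609 genes. Changes were planted in the 48 hpf exposed samples only, in genes above a minimum level, and counts were drawn independently for each pool. A shift of a whole pool, as in replicate 8 at 48 hpf and 50 mGy/h, was not simulated, so these rates may not hold for the real fit. Genes were named by rule: per class and direction the 4 largest differences among genes that have a symbol, a mean log2 CPM (log2 of counts scaled to library size) no lower than 1 and no overlap of stages, the 3 largest rises and falls at 50 mGy/h, list members with a called difference (at most 6 a list) and the genes whose course the study plotted. Other genes are said to be named after their values were seen, as are all weakened genes but si:dkey-239j18.2, and capn3b and ENSDARG00000039070. The samples, lists and tests were chosen with earlier results of these data known. Alternatives were DESeq2 1.42.0, other scalings, no filter, other samples in the fit, strand ignored, other thresholds and each library left out. One gene that the rule names is not reported here.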

Additional observations from a re-analysis of the deposited data

Results flagged for a closer look

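The difference between the stage changes at 50 mGy/h and in controls passed the edgeR test for 44 genes. Among those named by rule it was above 0 for si:ch211-57n23.4 (5.69), PRTG (4.86), si:dkey-239j18.2 (3.82), NR0B2 (3.15), aep1 (2.58), hgfa (2.31), pfkmb (2.25), ACP5 (2.06), olig3 (2.04), ryr3 (1.91) and TNNT3 (1.74). It was below 0 for cdx1a (-5.72), emilin3a (-3.69), tbx6 (-3.30), uox (-3.27), EFHD1 (-2.83), ponzr5 (-2.74), slc22a5 (-2.56), MYOG (-2.52), irg1l (-2.49), anxa14 (-2.32) and mymk (-1.74).

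In the 4 controls of batch I10 at 48 hpf, 1 sample lay far from the other 3 for 7 genes, where chance flags about 1 in 20 groups. Its level was 14.1 CPM for NR0B2, 3.95 CPM for si:dkey-239j18.2, 17.3 CPM for ENSDARG00000039173 and 7.42 CPM for meox1 (replicate 5, the highest), 27.5 CPM for POU4F2 (replicate 6, the highest), 34.5 CPM for nin (replicate 7, the highest) and 24.6 CPM for irg1l (replicate 7, the lowest). The number of groups examined is not given here, so the 7 genes cannot be set against that rate. Genes flagged through the same pool are not independent.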

How the results depend on the processing

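The number of genes whose stage change differed (44, with 11 lost, 12 gained and 5 reversed) depended on the settings, and the cause was not tested except where fewer samples or another threshold make it. It was 106 (37, 28 and 13) with the 5 mGy/h groups in the fit, 245 (96, 67 and 12) with DESeq2, 131 (43, 42 and 11) with no filter and 235 (82, 55 and 32) at an adjusted p of 0.05. It was 26 (6 lost, 5 gained) with DESeq2 size factors, 14 (5, 2 and 3) with library totals, 20 (6, 6 and 2) in a test against a fold change of 1.5, and 1 (1, 0 and 0) with batch I10 controls added. With strand ignored, 7 changes were gained. Leaving out 1 library gave 17 to 394 genes, 5 to 168 lost, 2 to 118 gained and 3 to 32 reversed. With the replicate block, which the data do not pair (same-numbered samples had correlations of -0.149 to 0.147 in their deviations), 22 genes differed, all among the 44. The stage change at 50 mGy/h was called for 2127 genes and that of controls for 2623 in the test against a fold change of 1.5, and for 2648 at 50 mGy/h when each arm was fitted alone. The difference in position at 24 hpf was -25.6 with library totals (main -19.4, and -21.1 to -16.7 with 1 library left out), and that at 48 hpf was -34.3 to -25.4 with 1 library left out. At 96 hpf 1 gene was called with the removed replicate kept. Of the values of single genes with a called difference, 554 kept the call and 370 lost it, and none changed direction. The list medians of the Notch pathway, mitosis, DNA replication and sarcomere kept their sign under each scaling. With library totals the median difference of all genes was itself 0.37 (0.04 with TMM), so a sign above 0 there is no separate evidence. Over all lists and settings, 42 list medians were flagged as moved and 417 were not.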
